A study of Mus musculus with 13 samples.

Results

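The TGF-beta receptors and SMAD signalling genes are 8 genes, taken by name: the ligand Tgfb1, the receptors Tgfbr1 and Tgfbr2, the receptor-activated SMADs Smad2 and Smad3, the shared partner Smad4, and the inhibitors Smad7 and Ski. They are 8 of the 17280 genes common to all plate tables and to the table of genes the authors kept, and all 8 were among the 4834 genes that had at least 200 transcripts and were tested. A gene missing from any of these tables was not analysed, and genes said below to be in the data are those among the 17280. Their levels were followed in single microglia of mice on normal chow (NC) or on a high-fat diet (HFD), in wells with at least 1500 transcripts over the 17280 genes. Such wells numbered 1617 of 2496.

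The animals were male wild-type C57BL/6J mice, and no transgene or deletion separated the groups. HFD held 60% fat and was given for 1 day, 3 days, 1 week, 4 weeks, 9 weeks or 16 weeks, while NC mice had standard chow. Cells were sorted by FACS as CD45lo CD11b+ after a Percoll gradient, and the study's methods name the hypothalamus for them, where the labels of these plates list several brain regions. Each of the 13 plates was sequenced by CEL-Seq2, which tags the 3′ end of each transcript with a unique molecular identifier (UMI). Since each transcript gives 1 tag whatever its length, levels of different genes are set side by side with no correction for length. Other differences between genes in how their transcripts are captured and counted were not tested. A level here is always transcripts per 10000 of the cells' total. Diet, length and replicate came from the authors' table of wells, in which 7 days and 1 week were joined. A replicate is an identifier on plates that share it. The sources used here do not say that every identifier is a separate mouse. In the main fit of levels, p-values and intervals measure the spread between the 68 sums described below, not between the 44 replicates. A replicate found on several plates enters as several of these sums, so at 9 weeks 2 replicates give 6 sums. Tests of detection permute lengths among replicates. Either spread may in part be technical.

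NC had 722 kept cells in 19 replicates, and HFD had 161 cells in 6 replicates at 1 day, 121 in 4 at 3 days, 172 in 5 at 1 week, 128 in 3 at 4 weeks, 82 in 2 at 9 weeks and 231 in 5 at 16 weeks. The cell names carry 9, 14 or 24 weeks, or no number, and these differ with length: 9 at 1 day, 14 at 3 days, 24 at 9 weeks, and all 4 kinds in NC. Cells of a replicate on a plate were summed, which gave 68 sums of 22774 to 219199 transcripts (median 65243). Plates are unequal in make-up: plates 1, 2, 3, 7 and 9 each hold 1 NC and 1 HFD replicate, and plate 5 has no NC sum. No cell name was shared by plates.

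TGF-beta is secreted in a latent form, is released outside the cell, and is bound by the type II receptor TGFBR2, which recruits and phosphorylates the type I receptor TGFBR1. The active TGFBR1 kinase phosphorylates SMAD2 and SMAD3, which join SMAD4 and enter the nucleus to regulate transcription. SMAD7 blocks the active receptor and brings in ubiquitin ligases, and SKI holds SMAD complexes in a repressed state. In the brain this pathway is known for maintaining the identity of microglia, whose adult marker genes depend on it. Phosphorylation of SMADs, release of latent ligand and protein levels are not measured by RNA, so the values below are transcript levels only.

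The sorted cells carried the markers of microglia. P2ry12, a purinergic receptor of homeostatic microglia, had a UMI in 99.1% of kept cells, and the summed level of 10 microglial markers ran from 278.1 to 393.9 across all replicates. Markers of 2 other myeloid cell types had unequal means across lengths. The summed level of monocyte markers, 3 of 5 in the data, had a mean of 0.189 in NC (0 to 0.507), 0.0842 at 1 day, 0.194 at 9 weeks and 0.404 at 16 weeks, but 1.36 at 3 days (0.0601 to 4.65), 1.68 at 1 week (0.204 to 4.35) and 1.22 at 4 weeks (0.154 to 2.70). That of border macrophage markers, 6 of 7 in the data, was 0.394 in NC (0 to 1.40), 0.0722 at 1 day, 0.332 at 9 weeks and 0.33 at 16 weeks, beside 0.931 at 3 days (0 to 2.86), 1.002 at 1 week (0.0912 to 1.94) and 1.19 at 4 weeks (0.258 to 2.29). The ranges overlap NC for both lists, and these levels were not tested. Markers of lymphocytes, neurons, astrocytes, oligodendrocytes and endothelium stayed at or below 2.48 in every replicate. S100a9, the only one of 5 neutrophil markers in the data, was at 0 in NC, 1 day and 9 weeks but reached 72.5 in 1 replicate of 4 weeks (M21 on plates 4 and 5), where nearly all of it lay on plate 5.

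The genes lie on 4 chromosomes of GRCm38 (GENCODE M21). Tgfb1 is at chr7:25687002-25705077 (+), Tgfbr1 at chr4:47353222-47414931 (+), Ski at chr4:155154075-155222592 (-), Tgfbr2 at chr9:116084293-116175360 (-) and Smad3 at chr9:63646767-63757994 (-). Smad2 is at chr18:76241580-76310963 (+), Smad4 at chr18:73639009-73703780 (-) and Smad7 at chr18:75367529-75395935 (+). All are protein coding. Smad4 alone overlaps another gene model, the processed pseudogene AC132418.2 on the opposite strand, which does not lie within the last kilobase of Smad4, where its tags are expected.

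In NC microglia Tgfbr1, the type I receptor kinase, stood far above the other genes of the pathway core. Its level was 16.8 ± 2.34 (SD, n = 19 replicates; lowest 11.05, median 17.5, highest 19.9), rank 41 among the 17280 genes. Tgfbr2, the ligand-binding type II receptor, was at 3.93 ± 0.80 (lowest 1.88, median 3.895, highest 5.07). Tgfbr1 was above Tgfbr2 in 19 of 19 replicates, 4.27 times as high by the means, and the ranges did not overlap. Transcripts of the 2 receptors that act as a complex were thus measured at unequal levels in every NC replicate.

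The inhibitor Ski followed Tgfbr2 closely, at 3.61 ± 1.30 (lowest 1.64, median 3.31, highest 5.87). Tgfbr2 was above Ski in 12 of 19 replicates, so these neighbours in the order do not differ beyond their spread. Tgfb1, the ligand, was at 2.04 ± 0.68 (lowest 1.01, median 1.91, highest 3.83), and Ski exceeded it in 17 of 19 replicates. Microglia therefore held transcripts of the ligand as well as of both receptors.

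Among the SMADs the inhibitory Smad7 was highest, at 1.39 ± 0.58 (lowest 0, median 1.48, highest 2.35). Smad3 was at 1.05 ± 0.43 (lowest 0.36, median 1.02, highest 1.78) and Smad4 at 0.82 ± 0.37 (lowest 0.34, median 0.80, highest 1.66). Smad7 exceeded Smad3 in 11 of 19 replicates and Smad3 exceeded Smad4 in 13 of 19, and their ranges overlap widely. Smad2 was lowest, at 0.41 ± 0.32 (lowest 0, median 0.36, highest 1.24), below Smad4 in 16 of 19 replicates. With 212 transcripts over all 68 sums it passed the minimum of 200 by a small margin, so its values carry the widest errors of the 8 genes.

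The rest of the family, from 7 gene lists, gives these levels their setting. Of 19 other ligands (Tgfb2, Tgfb3, BMPs, GDFs, activin and inhibin subunits, Mstn and Nodal), 7 were in the data and none had enough transcripts to be tested. The others were not in every table and were not measured here. The list holds Bmp1, which despite its name is a secreted metalloproteinase and not a ligand, at 0.119 in NC. The highest of the ligands proper in the data was Tgfb2, at 0.0727. Among 11 other receptors, Bmpr2, the BMP type II receptor, was highest at 1.41 ± 0.46, and Tgfbr3, the betaglycan co-receptor, was at 0.0399. Smad1 and Smad5, which carry BMP signals, were at 0.642 ± 0.360 and 0.616 ± 0.549. So Tgfbr1 and Tgfbr2 were each above every other receptor of the list in the data by their NC means, and Tgfb1 was above every other ligand in the data.

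Genes that store and release latent TGF-beta were also present. Itgb5, an integrin beta chain, was at 8.51 ± 1.82, Nrros, which holds latent TGF-beta on myeloid cells, at 2.48 ± 0.63, and Itgav, the integrin alpha chain partner of Itgb5 and Itgb8, at 1.92 ± 0.53. Itgb8 was at 0.113, and Lrrc32, Ltbp2 and Ltbp4 were not among the genes analysed. Of SMAD regulators, Pmepa1, a SMAD target that restrains the pathway, was highest at 12.7 ± 2.36, close to the level of Tgfbr1. Skil, the paralog of Ski, was at 2.61 ± 0.80.

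**Figure D1:**
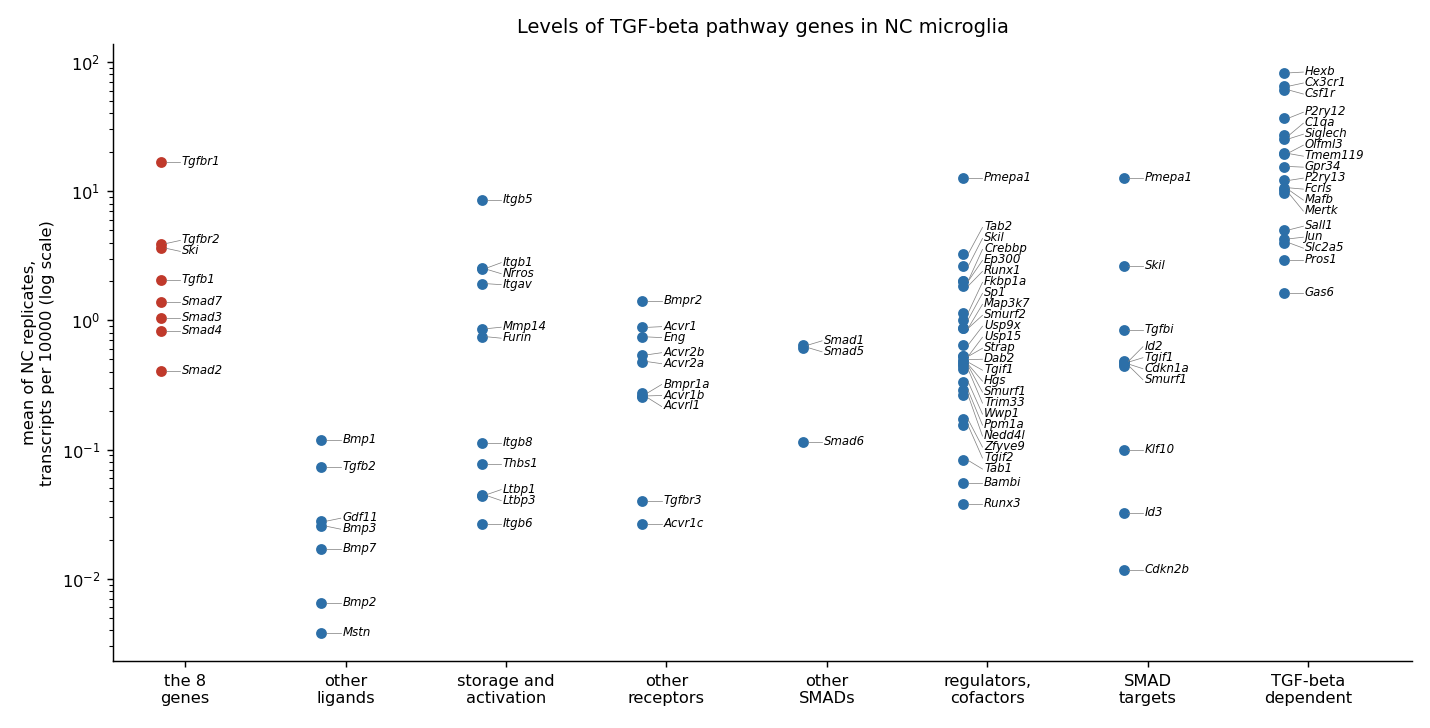
Mean level over the 19 NC replicates, in transcripts per 10000 on a log axis, of the 8 genes (red) and of genes of the 7 lists (blue), each point 1 gene. Tgfbr1 at 16.8 lies above all other receptors, ligands and SMADs, and Pmepa1 at 12.7 is the nearest regulator. Bmp1, in the column of ligands, is a metalloproteinase. Pmepa1, Skil, Tgif1 and Smurf1 appear in 2 columns because they are in 2 lists.

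The NC level is also given by plate, as a description with no test. For Tgfbr1 the plate means ran from 14.5 (plate 7) to 20.6 (plate 12). For Tgfb1 they ran from 1.34 (plate 4) to 3.15 (plate 2), a ratio of 2.35. For Ski the ratio of the highest to the lowest plate was 3.04, for Smad3 3.03 and for Smad4 3.94. HFD was set against NC within plates, with the plate as a term in the fit. By the weeks in the cell names, Tgfb1 was at 2.37 ± 0.79 in the 8 NC replicates with 9, at 1.34 ± 0.32 in the 3 with 14 and at 1.85 ± 0.42 in the 6 with 24, ranges that overlap, and weeks and plates cannot be told apart except on plate 13.

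Per cell, Tgfbr1 transcripts were found in nearly every microglial cell. Without thinning, 97.7% of the 722 NC cells had at least 1 Tgfbr1 UMI and 60.7% had a Tgfbr2 UMI. With every cell thinned to 1000 UMIs, so that depth is equal, the shares were 80.2% for Tgfbr1, 32.8% for Ski, 30.1% for Tgfbr2, 20.8% for Tgfb1, 13.2% for Smad7, 9.28% for Smad3, 7.76% for Smad4 and 3.46% for Smad2. All kept cells had over 1000 UMIs (the lowest had 1506), so none was left out. The order of the shares follows the order of the levels except for Ski and Tgfbr2.

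The spread of UMIs between NC cells was measured on the thinned cells, and thinning itself draws the ratio of variance to mean towards the value of 1 that a Poisson draw gives. The variance within plates divided by the mean was highest for Tgfbr1, at 1.24, and for the other 7 genes it ran from 1.00 for Ski to 1.16 for Smad7. The share of thinned NC cells without a Tgfbr1 UMI was 19.8%, beside 17.7% for a Poisson draw with the plates' means. Thinned, 23.7% of NC cells had UMIs of both receptors, beside 24.1% if the receptors were drawn independently within plates. In the HFD groups the thinned share with both ran from 18.6% at 1 day to 35.4% at 9 weeks, beside 20.03% and 35.1% under independence. The shares at the other lengths were 23.97% at 3 days, 29.65% at 1 week, 25.8% at 4 weeks and 26.4% at 16 weeks, beside 22.3%, 27.7%, 24.1% and 26.5%. Unthinned shares are not compared in this way, because nearly every cell then has a Tgfbr1 UMI.

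Against NC, no gene of the 8 passed the test at any length of HFD. Over all tested genes, the test of any HFD length called 2 genes (0.0414%), 1 week 1 gene (0.0207%), 4 weeks 1 gene (0.0207%) and 16 weeks 2 genes (0.0414%), while 1 day, 3 days, 9 weeks and the mean of the 6 lengths called 0 (0%). The genes called were Fhl3, Hbb-bs and Enpp2, none of them in the lists used here. At an unadjusted p under 0.05, 172 to 244 of the 4834 genes passed in a given comparison, and of the 64 values of the 8 genes none did, with the smallest adjusted p at 0.965 (edgeR quasi-likelihood test). The members' share of calls is therefore 0 against a background that is itself close to 0. DESeq2 called 0 of the 8 as well.

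**Figure D2:**
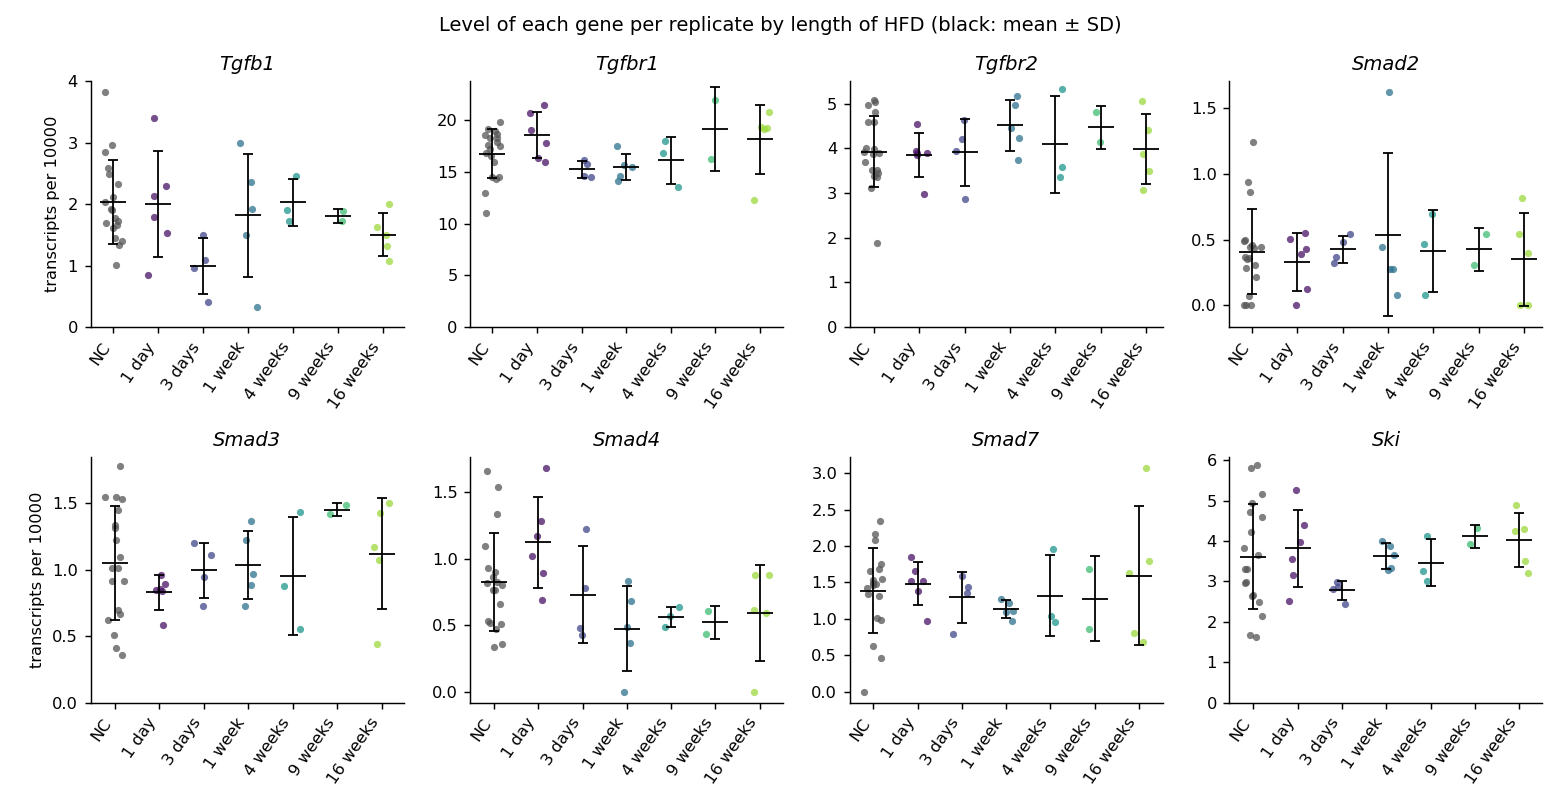
Level of each of the 8 genes in transcripts per 10000, 1 point per replicate, by diet and length of HFD, with black bars for the mean and SD; each panel has its own axis. The HFD points of Tgfbr1 lie between 12.3 and 21.97, and those of NC between 11.05 and 19.9.

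Over the mean of the 6 HFD lengths, the receptor Tgfbr1 was the gene measured most tightly. Its fitted log2 fold change was 0.01 (SE 0.07, 95% interval -0.12 to 0.14), which bounds the average difference to between 0.92 and 1.10 times NC. Tgfbr2 had the smallest p of the 8 in this comparison, with 0.10 (SE 0.10, interval -0.10 to 0.30, adjusted p = 0.998 by edgeR). For Ski the value was 0.07 (interval -0.14 to 0.28), for Tgfb1 -0.13 (-0.42 to 0.15), for Smad7 -0.15 (-0.47 to 0.17) and for Smad3 -0.03 (-0.39 to 0.32). For Smad4 it was -0.13 (-0.56 to 0.30) and for Smad2 0.19 (-0.40 to 0.79), so for Smad2 a rise to 1.73 times NC or a fall to 0.76 times NC is within the interval. The median of the 8 was -0.01, beside 0.02 over all tested genes.

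**Figure D3:**
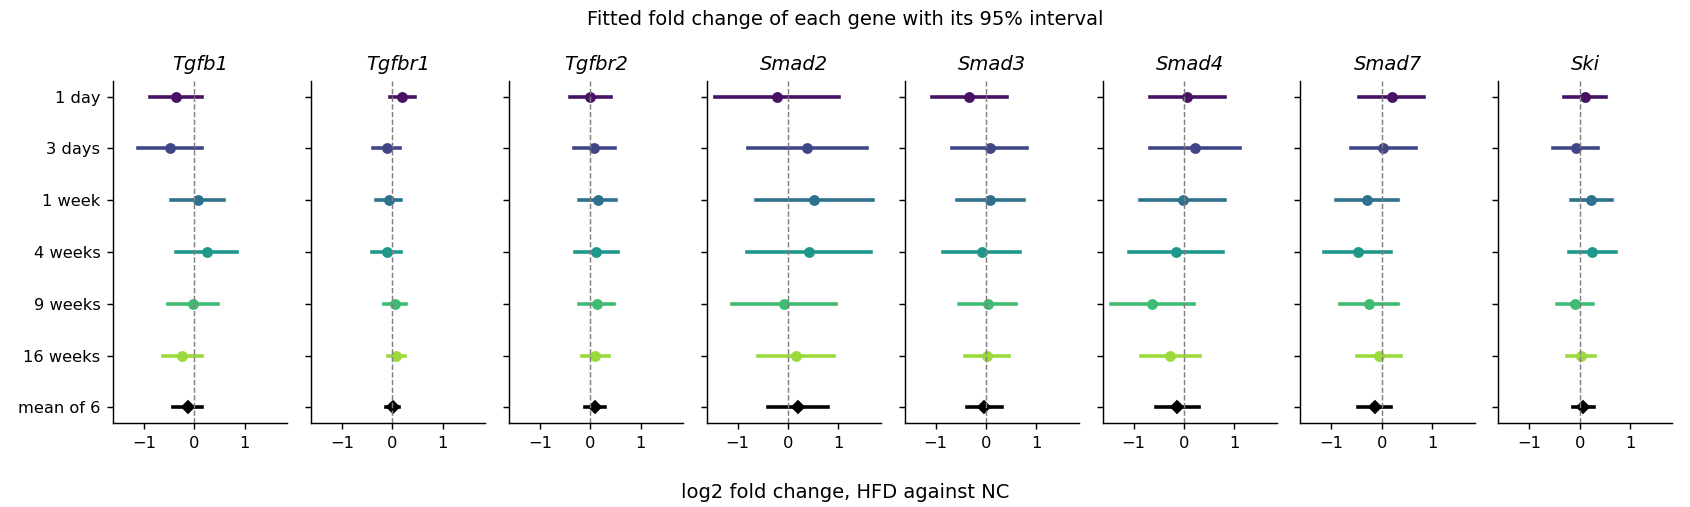
Fitted log2 fold change of each gene against NC with its 95% interval, for the 6 lengths of HFD and for their mean (black diamonds). All 48 intervals of single lengths hold 0, and they are narrowest for Tgfbr1 and widest for Smad2.

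At single lengths the 48 fitted log2 fold changes ran from -0.63 (Smad4 at 9 weeks) to 0.52 (Smad2 at 1 week), and 27 of 48 were above 0. The gene with the smallest p is given for each length. With few cells per sum, the intervals of Tgfb1, Smad2, Smad3, Smad4 and Smad7 leave room for changes that these data could not detect.

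After 1 day of HFD, Tgfbr1 had the smallest p. On plates 6 and 8 the 6 HFD replicates were at 16.4, 15.98, 19.0, 21.4, 20.7 and 17.8, and the 6 NC replicates at 12.9, 14.5, 17.2, 18.6, 14.3 and 17.6. Each of the 6 HFD sums lay above the mean of its plate's NC sums, by 2.69 on average, although the groups overlap. The log2 fold change was 0.20 (SE 0.13, 95% interval -0.05 to 0.46, adjusted p = 0.999), and 0.10 with no plate in the model. The thinned share of cells with a Tgfbr1 UMI was 2.36 percentage points lower in HFD than in NC within plates. Smad3, which carries the signal onward, lay below the plate's NC mean in 6 of 6 sums, by 0.22 on average, with a log2 fold change of -0.33 (SE 0.38, interval -1.07 to 0.41). The HFD cells held 33 Smad3 transcripts. The within-plate difference in cells with a Smad3 UMI was 2.83 percentage points thinned, higher in HFD, and -5.66 without thinning. The count of 1 day genes called over all genes was 0, so these directions stand without a passed test.

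After 3 days of HFD, the length the study's labels name, the ligand Tgfb1 had the smallest p. The HFD replicates were at 1.10 and 1.502 on plates 4 and 5 and at 0.41 and 0.95 on plate 13. The NC replicate of plate 4, which rests on 7 cells, was at 1.34, and the 4 of plate 13 at 1.40, 2.50, 1.02 and 1.66. On plate 13 both HFD replicates were below all NC replicates, and on plates 4 and 5 they lay on both sides. The within-plate difference in cells with a Tgfb1 UMI was 3.035 percentage points thinned, higher in HFD, and -9.205 without thinning. The log2 fold change was -0.48 (SE 0.32, 95% interval -1.11 to 0.16, adjusted p = 0.992), and 3 of the 4 sums on plates with NC were below the plate's NC mean. It was -0.99 without plates 4 and 5, -0.80 with no plate in the model, -0.81 without plates 1, 2, 3, 7 and 9, -0.24 with plate and weeks as the block and -0.32 without replicate M17 on plate 13. Over the whole set the 4 replicates had a mean of 0.99 ± 0.45, the lowest of any length, beside 2.04 ± 0.68 in NC, but the NC replicates with 14 weeks in their names, as in the 3 day cells, were at 1.34 ± 0.32. Tgfbr1 at 3 days lay below the plate's NC mean in 4 of 4 sums, by 1.77 on average, with a log2 fold change of -0.11 (SE 0.13, interval -0.37 to 0.15). That value was 0.06 with no filter on genes, where the scaling moved the median of all genes by 0.14. Of these sums, 2 are set against the 7 NC cells of plate 4, at 17.45. On plate 13 the HFD sums, at 14.52 and 15.75, lay within the NC range of 11.05 to 18.64. The within-plate difference in cells with a Tgfbr1 UMI was 2.365 percentage points thinned and -0.61 without thinning. Monocyte markers averaged 1.36 in these replicates, beside 0.189 in NC, and border macrophage markers 0.931, beside 0.394. The part of both in the 3 day values was not tested.

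After 1 week of HFD, Ski had the smallest p. Its HFD replicates were at 4.01 and 3.33 on plates 4 and 5, 3.27 on plate 7, 3.65 on plate 9 and 3.88 on plate 13, and 4 of the 5 sums on plates with NC were above the plate's NC mean. Of the 5 sums, 2 are on plate 4, where NC rests on 7 cells, with Ski at 1.68. The log2 fold change was 0.23 (SE 0.20, 95% interval -0.17 to 0.63, adjusted p = 1.00), and it turned negative, at -0.07, without plates 4 and 5 and, at -0.06, without the plate in the model. It was 0.42 without replicate M4 on plate 9, 0.14 without M22 on plates 4 and 5 and 0.51 without plates 1, 2, 3, 7 and 9. Tgfbr2 lay above the plate's NC mean in 5 of 5 sums, by 0.72 on average, with a log2 fold change of 0.15 (SE 0.19, interval -0.22 to 0.52). The highest fitted change of all, Smad2 at 0.52 (SE 0.59, interval -0.64 to 1.68), came from 21 transcripts in this group and was 0.01 without the 12 cells of replicate M13 on plate 13 and 0.84 without replicate M2 on plate 7. Monocyte markers were highest at this length, at 1.68, and border macrophage markers averaged 1.002, beside 0.394 in NC. The part of both in these values was not tested.

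**Figure D4:**
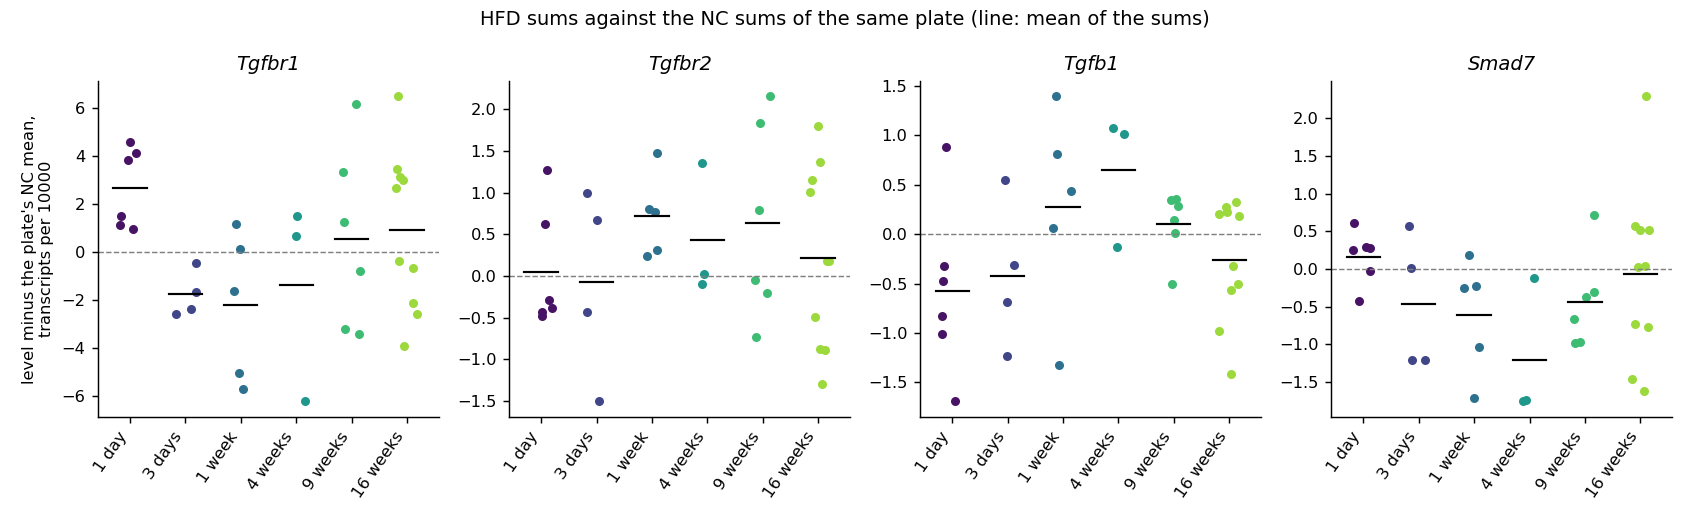
Level of each HFD sum minus the mean of the NC sums on its plate, in transcripts per 10000, for Tgfbr1, Tgfbr2, Tgfb1 and Smad7, by length of HFD; each point is the cells of 1 replicate on 1 plate and the line is the mean. For Tgfbr1 all 6 points at 1 day are above 0 and all 4 at 3 days are below it. On plate 4 the NC mean is 1 sum of 7 cells.

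After 4 weeks of HFD, the inhibitor Smad7 had the smallest p. The HFD replicates were at 1.96 on plate 1 and at 0.95 and 1.04 on plates 4 and 5, and the NC replicates at 2.08 on plate 1 and 2.35 on plate 4, where NC rests on 7 cells. All 3 HFD sums on plates with NC were below it, by 1.21 on average. The log2 fold change was -0.48 (SE 0.34, 95% interval -1.16 to 0.19, adjusted p = 0.999). It was -0.05 without plates 4 and 5, -0.85 without replicate L2 on plate 1 and -1.05 without plates 1, 2, 3, 7 and 9. Ski lay above the plate's NC mean in 3 of 3 sums, by 1.44 on average, with a log2 fold change of 0.24 (SE 0.24, interval -0.22 to 0.71). Of these sums, 2 are set against the 7 NC cells of plate 4, at 1.68. One of these replicates, M21, is the one with the S100a9 level of 72.5, and without it the Smad7 value was -0.39. Monocyte and border macrophage markers averaged 1.22 and 1.19 at 4 weeks. The part of any of these markers' cells in the values at 4 weeks was not tested.

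After 9 weeks of HFD, the shared partner Smad4 had the smallest p. Its 2 HFD replicates were at 0.61 and 0.43 and the 4 NC replicates of the same plates (10, 11 and 12) at 0.80, 0.53, 0.90 and 0.93, so the groups overlap by 1 NC replicate. In 5 of 6 sums Smad4 was below the plate's NC mean, and its log2 fold change was -0.63 (SE 0.42, 95% interval -1.46 to 0.20, adjusted p = 0.965), from 16 transcripts in the HFD cells. Leaving out either replicate gave -0.89 or -0.38.

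After 16 weeks of HFD, the ligand Tgfb1 again had the smallest p. The HFD replicates were at 1.63 on plates 2 and 3, at 2.001 and 1.49 on plates 10, 11 and 12 and at 1.32 and 1.07 on plate 13. The NC replicates were at 2.59 on plates 2 and 3, from 1.45 to 2.12 on plates 10, 11 and 12, and from 1.02 to 2.50 on plate 13. The log2 fold change was -0.24 (SE 0.20, 95% interval -0.63 to 0.16, adjusted p = 0.988), with 5 of 10 sums below the plate's NC mean, and it was -0.02 without replicate L4 on plates 2 and 3, -0.05 without plates 1, 2, 3, 7 and 9 and -0.39 without replicate M5 on plates 10, 11 and 12. Tgfbr1, with the narrowest error of any gene and length here, was at 0.08 (SE 0.09, interval -0.09 to 0.26).

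Detection per cell was compared in the same way, with the share of thinned cells that held a UMI and an exact two-sided permutation of the lengths among the replicates of linked plates. The difference is fitted with a term for each plate, so it weighs plates otherwise than the mean shares over sums and need not equal the gap between them. Of 48 comparisons none passed after adjustment, with the smallest adjusted p at 0.582. The smallest unadjusted p was that of Smad4 at 1 week, with mean shares of 3.20% over HFD sums and 7.85% over NC sums and a fitted within-plate difference of -5.99 percentage points (exact permutation p = 0.0333, 5 HFD and 7 NC replicates, 60 assignments). The mean Tgfbr1 shares at 1 week were 72.7% and 83.6%, and the fitted within-plate difference was -12.7 points (exact permutation p = 0.05). At 4 weeks and 9 weeks the replicates allow only 6 and 15 assignments, so no p there can go below 0.167 and 0.0667. Without thinning, the Smad4 difference at 1 week was -2.34 points, and the Tgfb1 difference at 1 day went from -8.22 to -4.66 points. Over the 4 other settings tried, these differences ran from -3.95 to -0.94 and from -8.22 to -0.57 points.

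**Figure D5:**
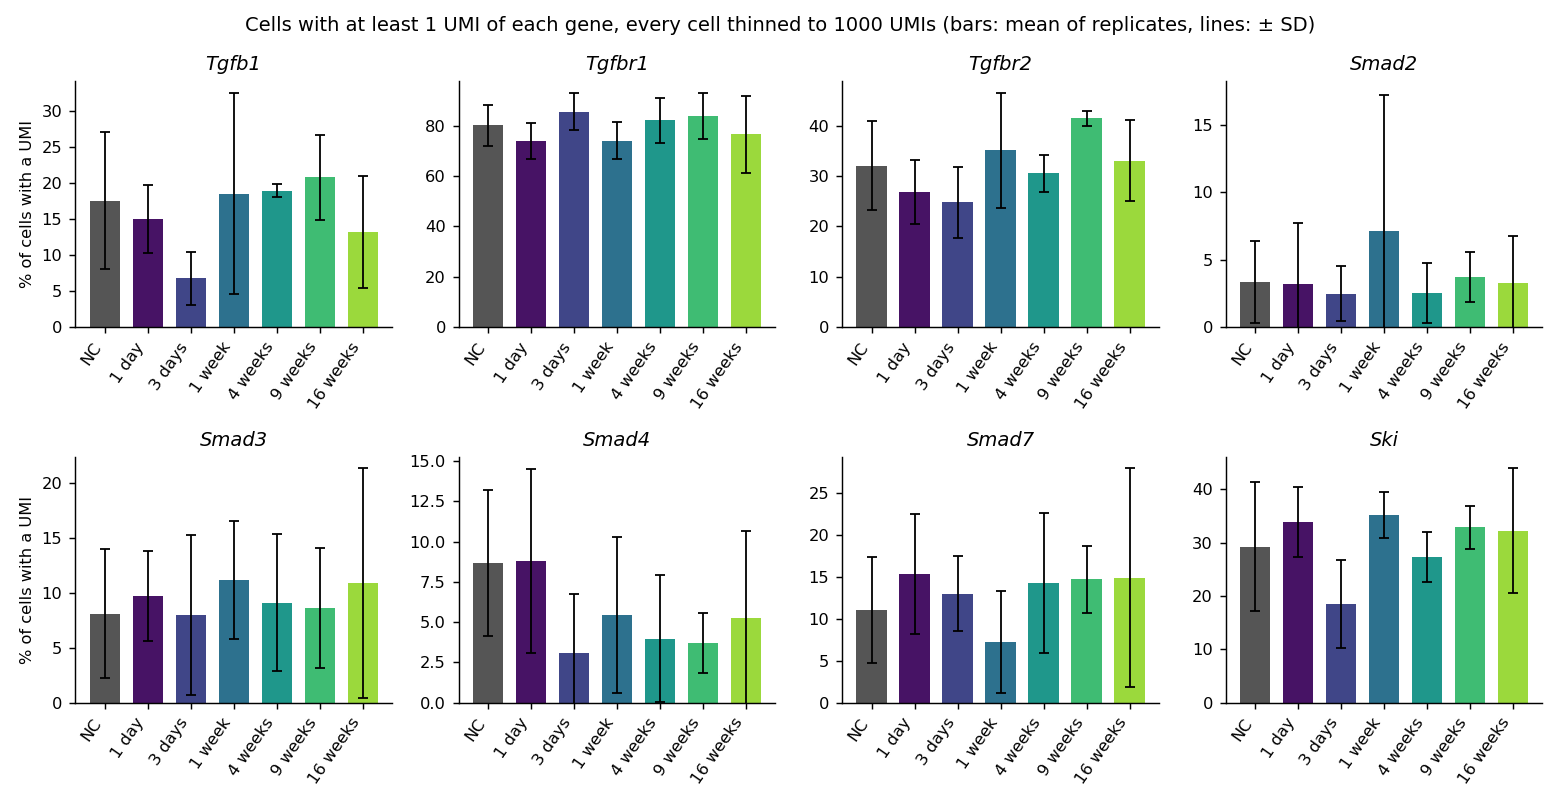
Share of cells with at least 1 UMI of each gene after thinning every cell to 1000 UMIs, as the mean of replicates (bars, from 0) with the SD (lines), by diet and length of HFD. The Tgfbr1 bars are the highest in every group, at 74.0% to 85.7% by the mean of replicates, and those of Smad2 stay between 2.48% and 7.14%.

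Genes downstream of the pathway did not pass the test either. Of 18 microglial genes known to depend on TGF-beta, all were tested and 0 were called at any length, the smallest adjusted p being 0.136, for Siglech over all lengths. At an unadjusted p under 0.05 there were 3 of the 18 at 1 day, 5 at 3 days, 4 at 1 week, 0 at 4 weeks, 2 at 9 weeks and 1 at 16 weeks, beside 206, 215, 172, 185, 244 and 223 of all 4834 genes. Siglech, a sialic acid-binding receptor of microglia at 25.4 ± 5.25 in NC, had a log2 fold change of -0.32 (SE 0.12) at 1 day and 0.40 (SE 0.12) at 3 days. Cx3cr1, the fractalkine receptor, and Olfml3, a secreted glycoprotein of microglia, came next, with adjusted p of 0.747 and 0.922. P2ry12, Tmem119 and Sall1, defining genes of resident microglia, were not called at any length. The median log2 fold change of the 18 genes was -0.01 at 1 day (8 of 18 above 0), 0.16 at 3 days (14), 0.21 at 1 week (16), 0.02 at 4 weeks (9), -0.02 at 9 weeks (9) and -0.06 at 16 weeks (6). Over all tested genes the medians at these lengths were -0.01, 0.07, 0.02, 0.04, -0.0019 and -0.01. Over the mean of lengths the values were 0.04 for the 18 genes and 0.02 for all genes. Monocyte and border macrophage markers had their highest means at 3 days, 1 week and 4 weeks, and their part in these medians was not tested.

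Of 12 immediate SMAD target genes, 11 were in the data, 7 were tested and 0 were called. Id2, a helix-loop-helix inhibitor of transcription that BMP signals induce, had the smallest p, with -1.96 (SE 0.69) at 3 days and -1.42 (SE 0.54) at 1 week, at a level of 0.482 ± 0.472 in NC (adjusted p = 0.747 over all lengths). Cdkn1a, the p21 cell cycle inhibitor, and Pmepa1 followed, both with an adjusted p of 0.998.

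The remaining lists also gave 0 calls: 0 of 19 tested SMAD regulators and cofactors, 0 of 6 genes of latent TGF-beta storage and activation, 0 of 5 other receptors and 0 of 2 other SMADs. Their smallest p over all lengths belonged to Pmepa1, Ep300, a histone acetyltransferase that SMADs recruit, and Trim33, a SMAD4 ubiquitin ligase, among regulators, and to Mmp14, Itgb5 and Nrros among genes of storage and activation. Among receptors they belonged to Eng, the endoglin co-receptor, Acvr2b, an activin type II receptor, and Bmpr2. All of these had an adjusted p of 0.998.

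Across the 68 sums, after removing plate means, the genes most like Tgfbr1 were Arhgap25 (Pearson's r = 0.59) and Jak1 (0.53), among 1337 genes with at least 10 transcripts per sum on average. For Tgfb1 they were Nipbl (0.42) and Fat3 (0.40), for Tgfbr2 Gtf2h2 (0.46) and Pxn (0.38), for Smad7 Gramd1a (0.53) and Camk2d (0.51), and for Ski Rps6ka1 (0.43) and Bin2 (0.42). The sums share plates and differ in depth, so these values describe the sums only. Smad2, Smad3 and Smad4 had too few transcripts for this search. Between the 8 genes themselves, with those included, the 28 correlations had a median of 0.05. They ran from -0.23, between Smad3 and Smad4, to 0.43, between Tgfbr2 and Smad2. Both ends thus rest on genes below the minimum of 10 transcripts per sum.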

How the data were processed

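Sorted CD45lo CD11b+ cells, 1 to a well, filled 13 plates with 192 wells each. By the study's methods, the authors ran snakePipes, trimming barcodes with Cutadapt, mapping to GRCm38/mm10 with STAR and counting on genes with featureCounts. The authors deposited an estimated count per gene and well for each plate, a UMI number corrected for chance repeats and carrying no normalization. All values used came from these tables. The filtered table of control and 3 day cells gave its gene names only, and its 843 columns of values were not used. The table of wells that the authors deposited gave plate, diet, length and replicate.

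Wells with at least 1500 transcripts were kept, and estimated counts were summed per replicate and plate (at least 5 cells). The rounded sums were fitted with the quasi-likelihood test of edgeR 4.0.16 in R 4.3.3 (TMM, plate and 6 HFD lengths as terms, genes with at least 200 transcripts, Benjamini-Hochberg over all genes, threshold 0.05). Standard errors are the log2 fold change divided by the root of F, and intervals cover 95%. Sums of a replicate on several plates enter separately: 16 replicates have more than 1, and limma 3.58.1 estimated their correlation at 0.0241. The script was tested on simulated counts. Detection used cells thinned to 1000 UMIs and permutations of lengths among replicates of linked plates, over 48 tests. Named genes are the 8 genes, in each comparison those called and otherwise the one with the smallest p, from each pathway list the called genes and otherwise at most 3 with the smallest p in the F test, the 2 genes with the highest r to each of the 8 that had at least 10 transcripts per sum, and marker genes where a level is given. Other genes named, and values of the 8 given beside the smallest p, were chosen after their values were seen. The level of 1 list gene is not reported here. The 8 genes and the gene lists were chosen with earlier results of these data known. Alternatives were DESeq2 1.42.0, other scaling, filters, units, plates and replicates. No doublet caller was run on these singly sorted cells. Sums held 22774 to 219199 transcripts, and counting error is widest for Smad2, with 212 transcripts over all sums.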

Additional observations from a re-analysis of the deposited data

Results flagged for a closer look

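Of 32 groups of replicates of a gene at a length with 4 to 6 replicates, 3 held a replicate far from the others, where chance alone marks about 1 group in 20. Tgfbr1 at 16 weeks of HFD was at 12.3 in replicate M10 on plate 13 (8 cells), with the other 4 replicates between 19.2 and 20.8. Smad2 at 1 week was at 1.62 in replicate M13 on plate 13 (12 cells), with the others between 0.0812 and 0.44. Smad3 at 1 day was at 0.58 in replicate M12 on plate 8 (22 cells), with the others between 0.84 and 0.96.

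Tgfbr1 lay on opposite sides of NC at 2 early lengths. All 6 sums at 1 day of HFD lay above their plate's NC mean, by 2.69 transcripts per 10000 on average, and all 4 sums at 3 days lay below it, by -1.77 on average. The fitted difference between the 2 lengths, 1 day minus 3 days, was 0.31 on the log2 scale (SE 0.19, 95% interval -0.05 to 0.68), which did not pass the test (adjusted p = 0.997 by edgeR over 4834 genes, of which 0 were called and 225 had an unadjusted p under 0.05). No plate holds both lengths, and each was compared with the NC cells of its own plates. Of the 3 day sums, 2 were set against 7 NC cells on plate 4, and those on plate 13 lay within the NC range there. The thinned within-plate difference in cells with a Tgfbr1 UMI was -2.36 percentage points at 1 day and 2.365 at 3 days. On plate 13, 2 of the 4 NC replicates carry 24 weeks in their names and the 3 day cells carry 14.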

How the results depend on the processing

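None of the 8 genes was called under any alternative in which it had a value, over 1293 values. The smallest adjusted p was 0.117 (Tgfb1 at 3 days, edgeR with no plate in the model). Counts over all genes moved more. With no plate in the model the counts were 71 for any length, 3 at 1 day, 31 at 3 days, 11 at 1 week, 22 at 4 weeks and 4 for the mean of lengths. DESeq2 called 0 for any length, 0 at 1 week, 4 weeks and 16 weeks, and 1 at 9 weeks. With filterByExpr they were 1 for any length, 0 at 1 week and 1 at 16 weeks, with no filter 13 for any length, with sums over linked plates 0 at 1 week, and without plates 4 and 5 they were 6 for any length and 1 at 3 days. Leaving out 1 HFD replicate gave 0 to 3 genes for any length, 0 to 2 at 1 week, 0 to 2 at 4 weeks and 0 to 3 at 16 weeks, and 0 for the rest; the calls at 16 weeks were 0 without replicate L4 on plates 2 and 3, those at 4 weeks 0 without L2 on plate 1 and 2 without M20 on plates 4 and 5, and those at 1 week 0 without M2 on plate 7 and 2 without M23 on plates 4 and 5. For any length they were 0 without L4 and 1 without L2. The cause of these moves was not tested.

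Of 174 log2 fold changes under other settings 161 kept their direction and 13 did not. Ski at 1 week was -0.060 with no plate in the model and -0.071 without plates 4 and 5, and Smad2 at 1 week was -0.044 with no plate. Tgfbr1 at 3 days was 0.055 with no filter. For the mean of lengths, Tgfbr1 was -0.015 with DESeq2, -0.018 with median-of-ratios size factors, -0.0064 with filterByExpr, -0.015 with weeks as well as plate as the block and -0.014 without plates 1, 2, 3, 7 and 9. With DESeq2, median-of-ratios and filterByExpr the median of all genes shifted by -0.025, -0.025 and -0.013 in that comparison, about as far as Tgfbr1 did from its value of 0.0083. Smad3 was 0.016 without plates 4 and 5 and 0.028 without those 5 plates, Smad4 0.033 without those 5 plates, and Ski -0.080 with no plate. Leaving out 1 replicate gave -0.032 to 0.038 for Tgfbr1 and -0.15 to 0.10 for Smad3 (above 0 only without M4 of 1 week on plate 9). The settings with weeks and without the 5 plates were chosen after seeing the data. Of the detection differences, Tgfbr2 at 3 days went from -13.4 to 2.55 points without thinning, Ski at 4 weeks from 17.9 to -4.32 at 500 UMIs, and Tgfbr2 at 16 weeks from 5.18 to -0.89 with cells of at least 1000 transcripts.

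In the fits of NC and 1 length alone, several of the 8 genes fell under the minimum of 200 transcripts and have no value. For the mean of lengths, Smad2 has a value under 8 other settings and 23 fits without 1 replicate, beside 11 and 25 for the other genes.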
